A study of Mus musculus with 6 samples.

Results

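The transcripts described here encode the factors that start and extend protein synthesis, in mouse bone marrow monocytes given granulocyte-macrophage colony-stimulating factor (GM-CSF). Members were taken by name, as gene symbols that open with Eif1 to Eif6, Eef1 or Eef2. Eif2ak2, which encodes the antiviral eIF2 alpha kinase PKR, and pseudogene names were left out. The rule found 63 of the 24421 gene entries. Of these, 59 had enough reads to be tested. The other 4 (Eef1a2, Eif3j1, Eif3j2 and Eif4e1b) had 0 reads in each of the 6 libraries, so the filter on low counts removed no member with reads.

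As background, protein synthesis starts when eIF2, loaded with the initiator transfer RNA and GTP, joins the small ribosomal subunit together with eIF1, eIF1A, eIF3 and eIF5. The cap-binding complex eIF4F (the cap-binding protein eIF4E, the helicase eIF4A and the scaffold eIF4G) recruits that assembly to the mRNA, which is then scanned for a start codon. eIF5B joins the large subunit, eEF1A brings each further transfer RNA, eEF2 moves the ribosome along and eIF5A helps it past difficult stretches. Supply is controlled mainly at a pair of points: kinases that phosphorylate eIF2 block its recycling by eIF2B, and 4E-binding proteins hold eIF4E back until growth factor signals release it.

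Monocytes were sorted from the bone marrow of B6 mice and poly(A) RNA was sequenced from 3 libraries of cells given 5 ng of GM-CSF (no volume is stated) for 3 h and from 3 control libraries. The controls are described both as fresh cells and as cells in medium lacking the cytokine. If they were not cultured, time in culture and GM-CSF cannot be told apart. Neither genotype beyond the strain, nor age or sex of the mice is given, and the origin of the replicates (mice, cultures or aliquots) is not stated. The p-values therefore measure spread among these samples alone, and that spread may be technical. Each library held 16643228 to 25232956 reads in genes, at which 3 reads equal 0.119 to 0.180 CPM (a gene's reads scaled by the total gene reads of its library). GM-CSF replicate 3 stood slightly apart, with correlations of log2 CPM across genes of 0.977 and 0.980 with the other GM-CSF libraries, which correlated with each other at 0.989.

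The labelled cell type was checked by marker genes. All 9 monocyte markers were read and tested, and at an edgeR adjusted p under 0.05, 1 rose and 5 fell. Their summed levels were 62660 to 71940 CPM in control and 29220 to 31980 CPM in GM-CSF libraries. Of 9 neutrophil and precursor markers, all with reads, 1 rose and 5 fell, the same counts as for the monocyte list. Their sum went from 27710 to 38290 CPM down to 16280 to 20400 CPM. Over all genes tested, 64.0% were called, 32.8% higher and 31.2% lower. The 6 B cell markers summed to 61.9 to 71.4 CPM in control and 34.6 to 43.0 CPM in GM-CSF libraries, with 2 called lower. Basophil or mast cell markers summed to 6.09 to 15.2 CPM in control and 14.4 to 26.1 CPM in GM-CSF libraries, with 2 of 4 tested higher. Dendritic cell markers summed to 14.7 to 17.8 and 6.75 to 9.18 CPM, with 1 higher and 2 lower of 5 tested. Eosinophil markers reached at most 15.2 CPM, and T cell, NK cell and erythroid markers at most 2.17 CPM, with Epx and the 4 globin genes at 0 reads. The part of other cells in the results below was not tested. In bulk RNA, fewer cells of a type and less RNA per cell cannot be told apart, and levels are shares of each library rather than amounts per cell.

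Most initiation factor transcripts were higher in the GM-CSF libraries, while the elongation factors eEF1A and eEF2 did not pass the test. Of the 59 tested members, 39 rose and 10 fell at an adjusted p under 0.05 (edgeR quasi-likelihood test, Benjamini-Hochberg over all genes). Calls were frequent in this comparison: 64.0% of the 11731 genes tested passed, 32.8% higher and 31.2% lower, against 83.1%, 66.1% and 16.9% of the members. The counts by role given below come from lists too short for their shares to be set against those of all genes. The median log2 fold change was 0.40 over the members and 0.01 over all genes tested, a description without a test. Changes were small for most. At least 2-fold changes were found in 10 members (16.9%, against 24.5% of all genes), 9 of them higher. The CPM values of the groups did not overlap in 52 members (88.1%, against 69.5% of all genes). Of the tested members, 15 overlap an annotated gene on the other strand (Eef1b2, Eef2k, Eef2kmt, Eif1ad, Eif1b, Eif2a, Eif2ak1, Eif2ak3, Eif2b4, Eif2d, Eif3d, Eif3m, Eif4a2, Eif5b and Eif6). The use of strand in counting is not stated. If strand was ignored, reads over these overlaps may have been left out as ambiguous, and the effect on these members was not tested.

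**Figure D1:**
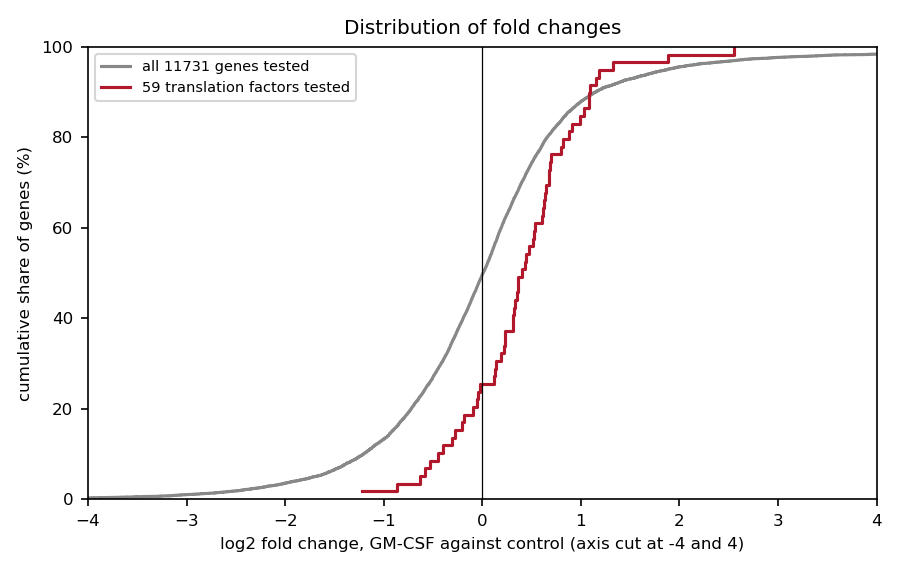
Cumulative share of genes (vertical axis, percent) against the log2 fold change of GM-CSF over control (horizontal axis) for the 59 tested translation factors and all 11731 tested genes. The curve of the factors lies to the right through most of the range, with a median of 0.40 against 0.01, and runs from -1.22 to 2.55.

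**Figure D2:**
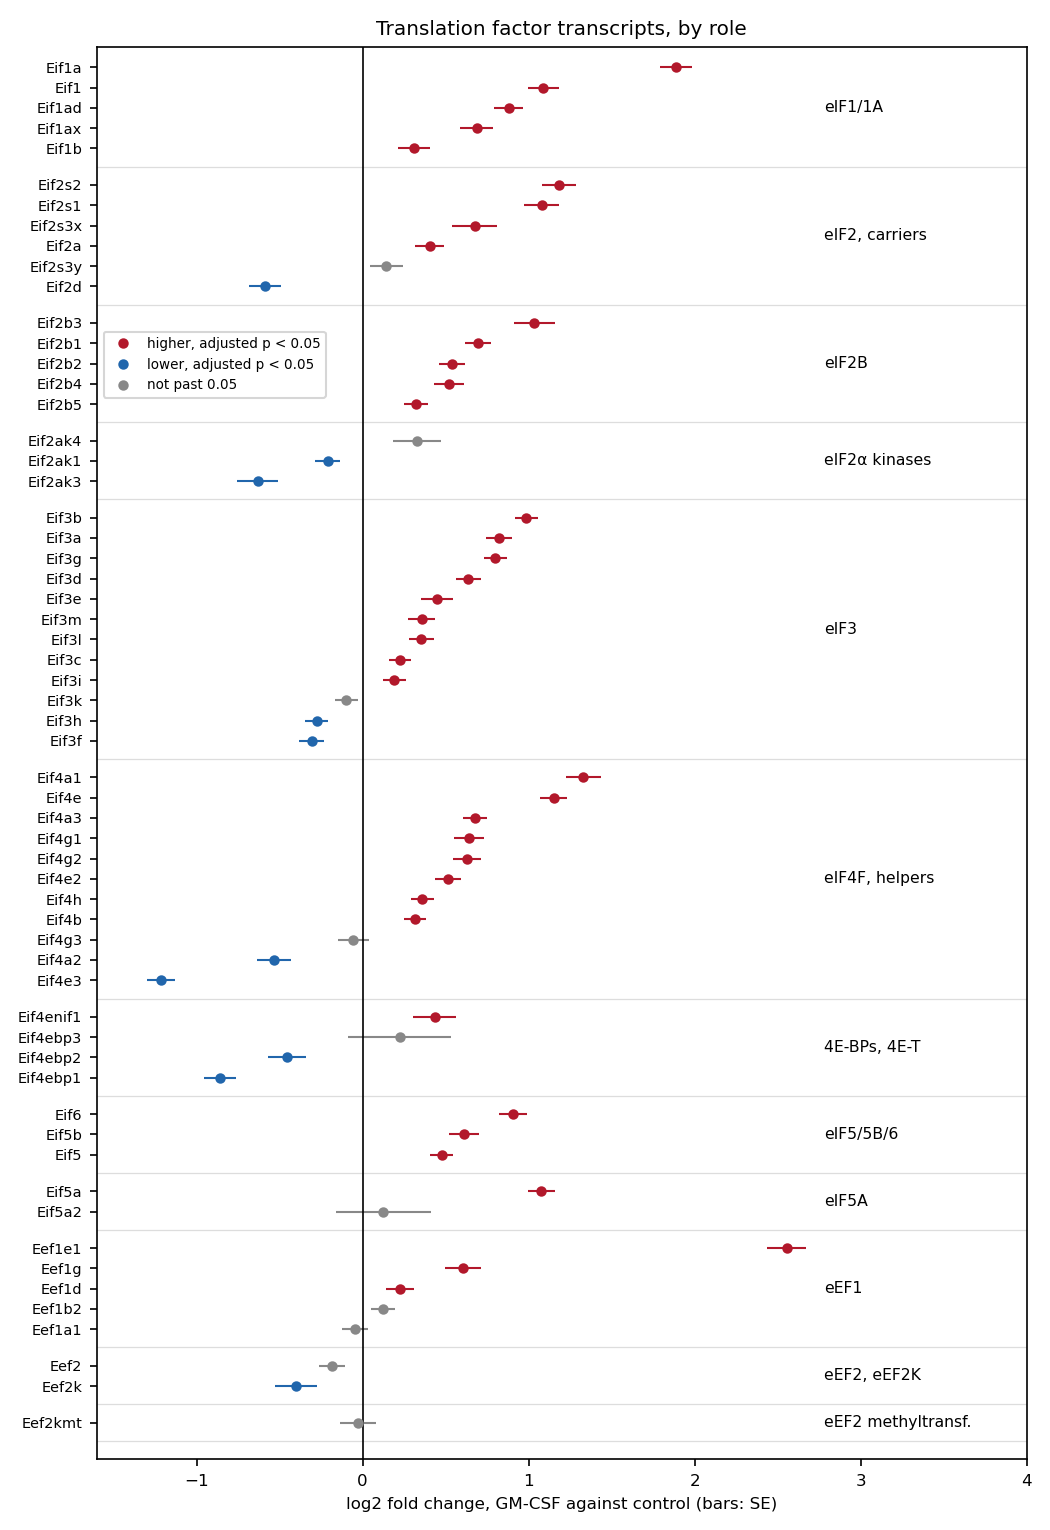
Log2 fold change (horizontal axis) of each tested factor with its SE as a bar, grouped by role and coloured by the edgeR call at an adjusted p of 0.05. All tested eIF1, eIF2B and eIF5/5B/6 genes lie to the right of 0, the eIF3 and eIF4F groups hold members on both sides, and Eef1e1 lies farthest right at 2.55.

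As a group, the 63 members took 0.969% to 0.996% of gene reads in the control libraries and 1.31% to 1.41% in the GM-CSF libraries. The pair with the most reads changed order. Eif5a supplied 9.92% to 11.2% of the members' reads in controls and 15.6% to 16.2% with GM-CSF. Eef1a1 went the other way, from 15.5% to 17.4% of the members' reads in controls to 11.5% in each GM-CSF library. Without Eif5a, the summed level was 8703 to 8975 CPM in control and 11030 to 11830 CPM in GM-CSF libraries, so the higher sum did not rest on Eif5a alone. Per kilobase of transcript, mean levels were 897 CPM per kb for Eef1a1, 715 for Eif5a and 285 for Eef2 in controls, and 866, 1501 and 249.9 with GM-CSF. By these counts Eif5a passed Eef1a1 as the highest member. Of the 100-base stretches of Eef1a1, 23.5% also occur in other annotated genes, against 0.7% for Eif5a. Reads of Eef1a1 may have been lost there, which would lower its rank and its share of the members' reads.

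Start codon scanning factors rose, 5 of 5 tested. Among all genes tested 32.8% were called higher, and 5 genes are too few to set against that share. Eif1a, which encodes an eIF1A protein that holds the scanning ribosome open, stood at 68.1, 57.8 and 62.2 CPM in the controls and 252, 227 and 213 CPM with GM-CSF. All GM-CSF libraries lay at more than 3 times the level of any control, with a log2 fold change of 1.89 ± 0.09 (SE; adjusted p = 3.45e-08). Its X-linked paralog Eif1ax rose by less, 0.69 ± 0.10. Eif1, which guards against starting at wrong codons, was measured at 367, 328 and 346 CPM in the controls and 820.1, 719.6 and 663 CPM with GM-CSF. That is a log2 fold change of 1.09 ± 0.09 (adjusted p = 1.96e-06), with no overlap between the groups. Eif1ad, whose product carries an eIF1A domain, rose by 0.88, but it overlaps Banf1 on the other strand. Eif1b, a close relative of Eif1, was called at 0.31 ± 0.10 (adjusted p = 0.0158), but not without control replicate 2 (0.26) or 3 (0.29), without GM-CSF replicate 1 (0.23) or with upper quartile scaling (0.19).

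Transcripts for the eIF2 complex, the carrier of the initiator transfer RNA, were about 2-fold higher for its alpha and beta subunits. Eif2s1, the alpha subunit that the stress kinases phosphorylate, stood at 138, 111 and 121 CPM in the controls and 284, 266 and 228 CPM with GM-CSF. The lowest GM-CSF library was well above the highest control (log2 fold change 1.08 ± 0.11, adjusted p = 6.11e-06). Eif2s2, the beta subunit, stood at 31.2, 26.9 and 26.4 CPM in the controls and 67.6, 63.0 and 60.2 CPM with GM-CSF, a change of 1.18 ± 0.10. The groups were again separate. The gamma subunit has an X-linked and a Y-linked gene. Eif2s3y was read at 74.3, 78.7 and 66.5 CPM in the controls and 89.0, 75.0 and 77.2 CPM with GM-CSF, so the groups overlapped, and it did not pass the test (0.14 ± 0.10, adjusted p = 0.233). Since this gene is Y-linked, every library held RNA of male cells, though the sex of the mice is not stated. Eif2s3x, with much lower counts, was measured at 7.71, 8.40 and 7.70 CPM in the controls and 12.9, 13.3 and 11.8 CPM with GM-CSF and rose by 0.68 ± 0.14 (adjusted p = 0.00122). Of its annotated 100-base stretches, 34.6% also occur in another gene, Gm2223, so reads may have been lost there; the corresponding share for Eif2s3y was 0.

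The alternative carriers were called in opposite directions, and both overlap a gene on the other strand, Eif2a with Serp1 and Eif2d with Rassf5. If strand was ignored in counting, reads over these overlaps may have been left out as ambiguous. The effect on their counts was not tested. Eif2a, which can deliver the initiator transfer RNA without eIF2, rose by 0.40 ± 0.09. Eif2d, linked to non-canonical initiation and to recycling of ribosomes, fell from 52.7 ± 4.85 to 34.9 ± 1.56 CPM (SD, n = 3 per group), a log2 fold change of -0.59 ± 0.10 with edgeR adjusted p = 3.13e-04.

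All 5 genes of eIF2B, the exchange factor that reloads eIF2 with GTP, rose, by 0.32 to 1.03 on the log2 scale. The gamma subunit gene Eif2b3 had the largest change, at 17.4, 14.0 and 17.1 CPM in the controls and 35.2, 33.6 and 30.3 CPM with GM-CSF (log2 fold change 1.03 ± 0.12, adjusted p = 2.60e-05). The GM-CSF values were about double the control values in this gene. Eif2b2, the beta subunit, was at 82.6, 86.9 and 89.5 CPM in the controls and 127, 116 and 131 CPM with GM-CSF, a smaller change of 0.54 ± 0.08 without overlap. Eif2b1 (0.70), Eif2b4 (0.52) and Eif2b5 (0.32) lay in the same direction, and the 5 calls held under each of 17 alternative settings.

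Of the kinases that phosphorylate eIF2 alpha, 3 are members, and of these 2 fell and 1 did not pass the test. Eif2ak2, the remaining kinase and no member, also fell (-1.12 ± 0.12, adjusted p = 1.17e-05). Eif2ak3 encodes PERK, which senses unfolded protein in the endoplasmic reticulum, and was at 49.2, 61.5 and 54.6 CPM in the controls and 29.2, 39.1 and 37.8 CPM with GM-CSF. Every GM-CSF value lay below every control value (log2 fold change -0.63 ± 0.12, adjusted p = 9.24e-04). Eif2ak1, the haem-regulated kinase HRI, was at 131, 145 and 144 CPM in the controls and 124, 124 and 113 CPM with GM-CSF. This small fall (-0.21 ± 0.07, adjusted p = 0.0287) was no longer called when any 1 of 4 libraries was left out, namely GM-CSF replicate 2 or 3 or control replicate 2 or 3 (-0.22 to -0.16). Eif2ak4, the amino acid sensor GCN2, was at 12.8, 13.4 and 10.5 CPM in the controls and 14.1, 17.2 and 14.8 CPM with GM-CSF and did not pass the test (0.33 ± 0.14, adjusted p = 0.0669), although its groups did not overlap and it was called without GM-CSF replicate 3 (0.36).

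eIF3, the largest initiation factor, is built of many subunits that form a scaffold on the small ribosomal subunit. Of its 12 tested genes, 9 rose and 2 fell. Eif3b, a core subunit, was at 234, 237 and 241 CPM in the controls and 488, 450.1 and 464 CPM with GM-CSF, close to a doubling (log2 fold change 0.99 ± 0.07, adjusted p = 3.99e-07), and each GM-CSF library was far above the controls. Eif3a (0.82 ± 0.08) and Eif3g (0.80 ± 0.07) followed, then Eif3d (0.64 ± 0.07), whose product can itself bind the cap of some mRNAs. Smaller rises were found in Eif3e (0.45), Eif3m (0.36), Eif3l (0.35), Eif3c (0.23) and Eif3i (0.19). Of these weaker calls, Eif3i was lost with 8 of 17 alternatives (adjusted p 0.0520 to 0.382), Eif3c with upper quartile scaling (0.11) and Eif3m with a correction for GC content (0.18).

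Both eIF3 subunits with an MPN domain fell. Eif3f was at 174, 186 and 183 CPM in the controls and 143, 136 and 158 CPM with GM-CSF (log2 fold change -0.31 ± 0.08, adjusted p = 0.00500). Eif3h was at 188, 194 and 185 CPM in the controls and 159, 152 and 156 CPM with GM-CSF (-0.28 ± 0.07, adjusted p = 0.00420). In neither gene did the groups overlap, and both calls held under all 17 alternatives. Eif3k, at 147 ± 8.42 and 136 ± 4.31 CPM in control and GM-CSF libraries, overlapped and did not pass the test (-0.10 ± 0.07, edgeR adjusted p = 0.244); it was called lower with upper quartile scaling alone (-0.22). Sorted by the parts of the complex, the 5 subunits shared with budding yeast (a, b, c, g and i) all rose, with a median log2 fold change of 0.80, and the 8 subunits of the octamer built from PCI and MPN domains (a, c, e, f, h, k, l and m) had 5 higher and 2 lower and a median of 0.29. These parts share Eif3a and Eif3c, and their difference was not tested.

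Per kilobase of the longest annotated coding transcript, a scale that depends on the transcript chosen, Eif3k was the highest eIF3 gene in each control library (155 to 172 CPM per kb) and Eif3a the lowest (33.6 to 36.1). In the GM-CSF libraries Eif3g was the highest (182 to 195 CPM per kb), and the lowest was Eif3f in replicates 1 and 2 and Eif3a in replicate 3. The highest subunit exceeded the lowest 4.29-fold to 5.03-fold in controls and 3.37-fold to 3.47-fold with GM-CSF. Eif3j1 and Eif3j2, which encode the loosely attached j subunit, had 0 reads. Of their 100-base stretches, 36.0% of those of Eif3j1 and 84.0% of those of Eif3j2 occur in the other copy, where reads have no unique position. Each also overlaps a small annotated microRNA gene on its own strand (Gm47314 and Gm27325), and Eif3j1 overlaps Spg11 on the other strand. The part of these overlaps in the counts of 0 was not tested.

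**Figure D3:**
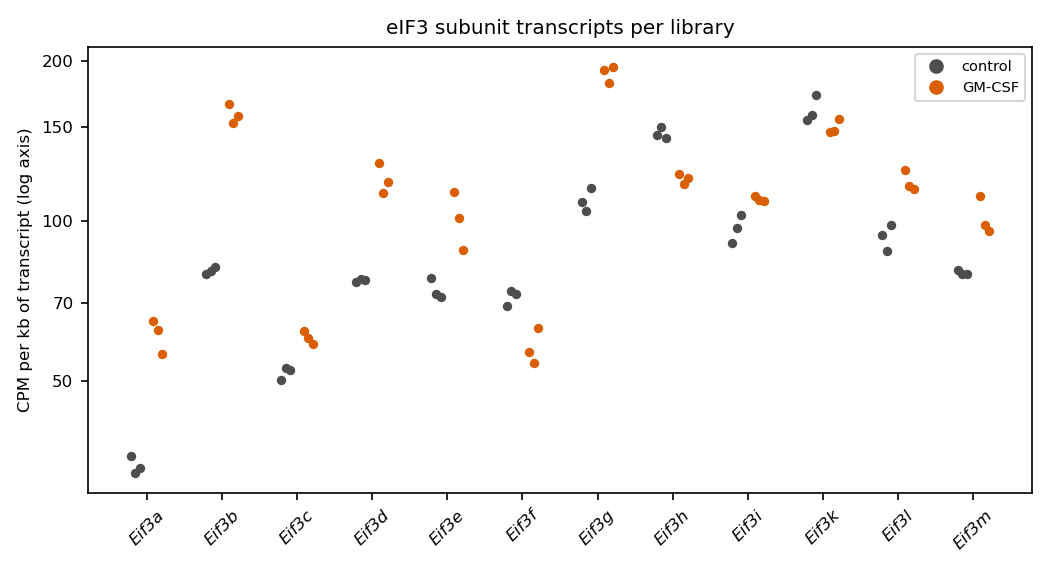
CPM per kilobase of transcript (logarithmic vertical axis) of the 12 tested eIF3 subunit genes in 3 control and 3 GM-CSF libraries, 1 point per library. Eif3b and Eif3g are clearly higher with GM-CSF, while the GM-CSF points of Eif3f and Eif3h lie below those of the controls.

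The core of eIF4F rose in all its main parts. Eif4e, the cap-binding protein, was at 122, 107 and 127 CPM in the controls and 269.6, 260.1 and 257 CPM with GM-CSF. The GM-CSF values were tightly grouped at more than double the controls (log2 fold change 1.15 ± 0.08, adjusted p = 3.98e-07). Eif4a1, the main helicase, was at 78.9, 70.3 and 77.8 CPM in the controls and 211, 195 and 163 CPM with GM-CSF, a rise of 1.33 ± 0.10 (adjusted p = 8.89e-07) in which GM-CSF replicate 3 was the lowest of its group but still above every control. Eif4g1, the scaffold, was at 177, 184 and 196 CPM in the controls and 312, 305 and 247 CPM with GM-CSF (0.64 ± 0.09, adjusted p = 1.08e-04), also without overlap. On GRCm38, Eif4e lies on chromosome 3 at 138526179 to 138559696, Eif4a1 on chromosome 11 at 69666936 to 69672423 and Eif4g1 on chromosome 16 at 20668313 to 20692884, and all 3 are protein-coding. For Eif4a1, 60.8% of its 100-base stretches also occur in other annotated genes, one of them named as the pseudogene Eif4a-ps4, so reads may have been lost there.

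The promoter windows of these 3 genes hold CACGTG, a word known as the E-box. Stretches around it are shown for members that rose, fell or did not pass the test, so that they can be set side by side. Each RefSeq window runs from 250 bases before to 50 after a transcript start on GRCm38.p6, a gene can have several starts, and 49 of the 63 members had at least 1 window. Each stretch below is 5′ to 3′ on the gene's strand, with CACGTG in capitals (the word reads alike on both strands) and its first base counted from that window's start.
Eif4g1, chr16:20672656-20672695, plus strand, motif starting at -54: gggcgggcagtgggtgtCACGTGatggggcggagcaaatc
Eif4a1, chr11:69672590-69672629, minus strand, motif starting at -189: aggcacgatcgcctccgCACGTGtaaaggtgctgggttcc
Eif5a, chr11:69921438-69921477, minus strand, motif starting at -74: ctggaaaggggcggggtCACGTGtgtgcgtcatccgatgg
Eef2, chr10:81176571-81176610, plus strand, motif starting at -43: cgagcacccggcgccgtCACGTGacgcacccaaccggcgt
Eef2k, chr7:120842783-120842822, plus strand, motif starting at -31: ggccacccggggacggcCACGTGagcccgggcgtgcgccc
Eif3f, chr7:108934330-108934369, plus strand, motif starting at -68: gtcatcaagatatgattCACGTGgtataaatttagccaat
The first 3 stretches belong to genes that rose, the next to Eef2, which did not pass the test, and the last 2 to genes that fell. The matches of Eif4e, at -228 and -64, lie inside the annotated Eif4e gene span and in an annotated exon, and their sequence is not shown. The stretches of Eif4g1 and Eif5a lie inside the annotated gene span, since other transcripts of these genes start further upstream, but in no annotated exon. CACGTG was found in a window of 12 of 49 members (24.5%). These 49 include 2 members that were not tested and had no match. The share was 12% of tested genes with a window and 9.17% of all genes with a window. Counted by single windows rather than genes, it was 7.15%. Among members it was in 7 of 31 that rose, 2 of 7 that fell and 3 of 9 that did not pass the test, so it occurred under every call. Several members have more than 1 window, which raises their chance of a match, and a match is a description of the sequence, not a bound site. Eif4e, with 2 matches in 1 of its windows, and Eif4g1, with 2 in its only window, had more than 1 site, as did Eif5a and Eif5a2.

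Other cap-binding and helicase genes divided. Eif4e3, an eIF4E relative with a different mode of cap binding, was at 104, 96.4 and 93.9 CPM in the controls and 40.3, 41.7 and 44.1 CPM with GM-CSF. This was the deepest fall of any member (log2 fold change -1.22 ± 0.08, adjusted p = 3.96e-07), and the groups lay far apart. Eif4a2, the second eIF4A helicase, was at 89.0, 80.4 and 73.8 CPM in the controls and 61.1, 52.6 and 53.7 CPM with GM-CSF (-0.53 ± 0.10, adjusted p = 9.01e-04), lower in every GM-CSF library. Eif4a2 hosts small nucleolar RNA genes and overlaps Rfc4 on the other strand. Eif4g3, a scaffold relative, overlapped between groups at 88.6 ± 9.39 and 84.7 ± 7.13 CPM and did not pass the edgeR test (-0.06 ± 0.09, adjusted p = 0.618).

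The remaining genes of this group rose. Eif4g2, whose product DAP5 lacks the eIF4E-binding part of the scaffold, was at 478, 506 and 506 CPM in the controls and 767, 848 and 680.3 CPM with GM-CSF (0.63 ± 0.08, adjusted p = 5.97e-05). Eif4a3, a helicase of the exon junction complex, rose by 0.68 ± 0.07 and Eif4e2, a cap-binding repressor, by 0.51 ± 0.08. The helicase cofactors changed least, Eif4h by 0.36 ± 0.07 and Eif4b by 0.32 ± 0.07. Eif4e1b, an eIF4E gene known from oocytes, had 0 reads in all libraries, which allows up to 0.119 to 0.180 CPM per library, counting error only.

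The 4E-binding proteins, which sequester eIF4E, fell where they were well measured. Eif4ebp1 was at 161, 146 and 157 CPM in the controls and 92.2, 73.8 and 87.9 CPM with GM-CSF. The highest GM-CSF value was well below the lowest control (log2 fold change -0.86 ± 0.10, adjusted p = 1.65e-05). Eif4ebp2 was at 89.1, 107 and 106 CPM in the controls and 60.8, 74.6 and 84.1 CPM with GM-CSF (-0.45 ± 0.12, adjusted p = 0.00524), with a narrow gap between the groups. Eif4ebp3 had only 24 to 54 reads per library and did not pass the edgeR test (0.23 ± 0.31, adjusted p = 0.540). Of its 100-base stretches, 62.8% also occur in AC115631.1, a gene that overlaps it on its own strand. Reads of Eif4ebp3 may have been lost there, so its low count need not mean a low level. Eif4enif1, a transporter that carries eIF4E into the nucleus and to processing bodies, was called higher (0.43 ± 0.13, adjusted p = 0.0135), though not without control replicate 1 (0.38) or with upper quartile scaling (0.32).

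Eif4e and Eif4ebp1 thus moved in opposite directions, a pair set side by side after their values were seen. Eif4e reads per Eif4ebp1 read were 0.757, 0.731 and 0.811 in the control libraries and 2.92, 3.53 and 2.92 in the GM-CSF libraries. Per length of transcript, Eif4e was at 0.293 to 0.325 of Eif4ebp1 in controls and at 1.17 to 1.41 with GM-CSF, so the order of the 2 levels reversed. These are mRNA levels, and the phosphorylation that controls 4E-binding proteins was not measured.

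Factors for the late steps of initiation rose, 3 of 3. Eif6, which keeps free large ribosomal subunits from joining too early, was at 169, 168 and 171 CPM in the controls and 346, 286 and 314 CPM with GM-CSF (0.91 ± 0.08, adjusted p = 3.61e-06). Eif5, which makes eIF2 hydrolyse its GTP at the start codon, was at 240.2, 245 and 249 CPM in the controls and 353, 344 and 319 CPM with GM-CSF (0.48 ± 0.07, adjusted p = 1.03e-04). Eif5b, the GTPase that joins the subunits, rose by 0.61 ± 0.09. In each of these genes the groups were separate.

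Eif5a was the member with the most reads in the GM-CSF libraries. Its product carries hypusine, an amino acid made from spermidine, and helps ribosomes through stretches such as consecutive prolines and at termination. Eif5a was at 985, 988 and 1110.5 CPM in the controls and 2287, 2069 and 2115 CPM with GM-CSF. All GM-CSF libraries were about double the controls (log2 fold change 1.08 ± 0.08, adjusted p = 7.40e-07). It lies on chromosome 11 at 69916714 to 69921958. Its paralog Eif5a2 had 51 to 120 reads per library, at 2.54, 4.76 and 2.55 CPM in the controls and 3.04, 3.73 and 3.96 CPM with GM-CSF, with overlapping groups (0.13 ± 0.29, adjusted p = 0.716).

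Among elongation factors, the abundant eEF1A and eEF2 transcripts were not called. Eef1a1, which delivers transfer RNA to the ribosome, was at 1559.9, 1734 and 1535 CPM in the controls and 1624, 1528 and 1506 CPM with GM-CSF. The ranges overlapped and the test was not passed (-0.04 ± 0.08, adjusted p = 0.641). Eef2, the translocase, was at 834, 964 and 845 CPM in the controls and 782, 741 and 792 CPM with GM-CSF. Every GM-CSF value was below every control, but the change of -0.18 ± 0.08 missed the threshold (adjusted p = 0.0655), and it was called lower with library size alone (-0.19), upper quartile scaling (-0.30), the DESeq2 test (-0.19) and without the 10 most abundant genes (-0.20). Eef1a2, the muscle and neuron form of eEF1A, had 0 reads.

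Subunits of the eEF1B exchange factor, which recharges eEF1A, rose modestly or did not pass. Eef1g rose by 0.61 ± 0.11 (adjusted p = 4.98e-04), with 49.4% of its 100-base stretches found in other genes. Eef1d was called at 0.22 ± 0.09 (adjusted p = 0.0393), a call lost with 7 of 17 alternatives (0.11 to 0.25), including leaving out GM-CSF replicate 1 or control replicate 2 or 3. Eef1b2 was not called (0.12 ± 0.07, adjusted p = 0.163).

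Eef1e1 had the largest change of all 59 members. Despite its name, its product (AIMP3 or p18) is a scaffold part of the multi-enzyme complex of aminoacyl-tRNA synthetases. It was at 20.7, 16.4 and 19.9 CPM in the controls and 123, 109 and 101 CPM with GM-CSF. The lowest GM-CSF library was more than 4 times the highest control, with a log2 fold change of 2.55 ± 0.12 (adjusted p = 1.84e-08), higher than in 97.0% of all genes tested. It lies on chromosome 13 at 38644207 to 38659058, and none of its 100-base stretches is shared with another gene.

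Neither regulator of eEF2 was called higher. Eef2k, the kinase that inhibits eEF2, was at 23.4, 22.7 and 29.7 CPM in the controls and 17.4, 19.6 and 19.98 CPM with GM-CSF, with the groups separate (-0.40 ± 0.13, adjusted p = 0.0182). The call ended without GM-CSF replicate 1 (-0.35) or control replicate 3 (-0.28), the highest control. Eef2kmt, which methylates eEF2, was at 23.0, 22.6 and 21.0 CPM in the controls and 20.6, 22.8 and 21.8 CPM with GM-CSF and overlapped (-0.03 ± 0.11, adjusted p = 0.833).

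**Figure D4:**
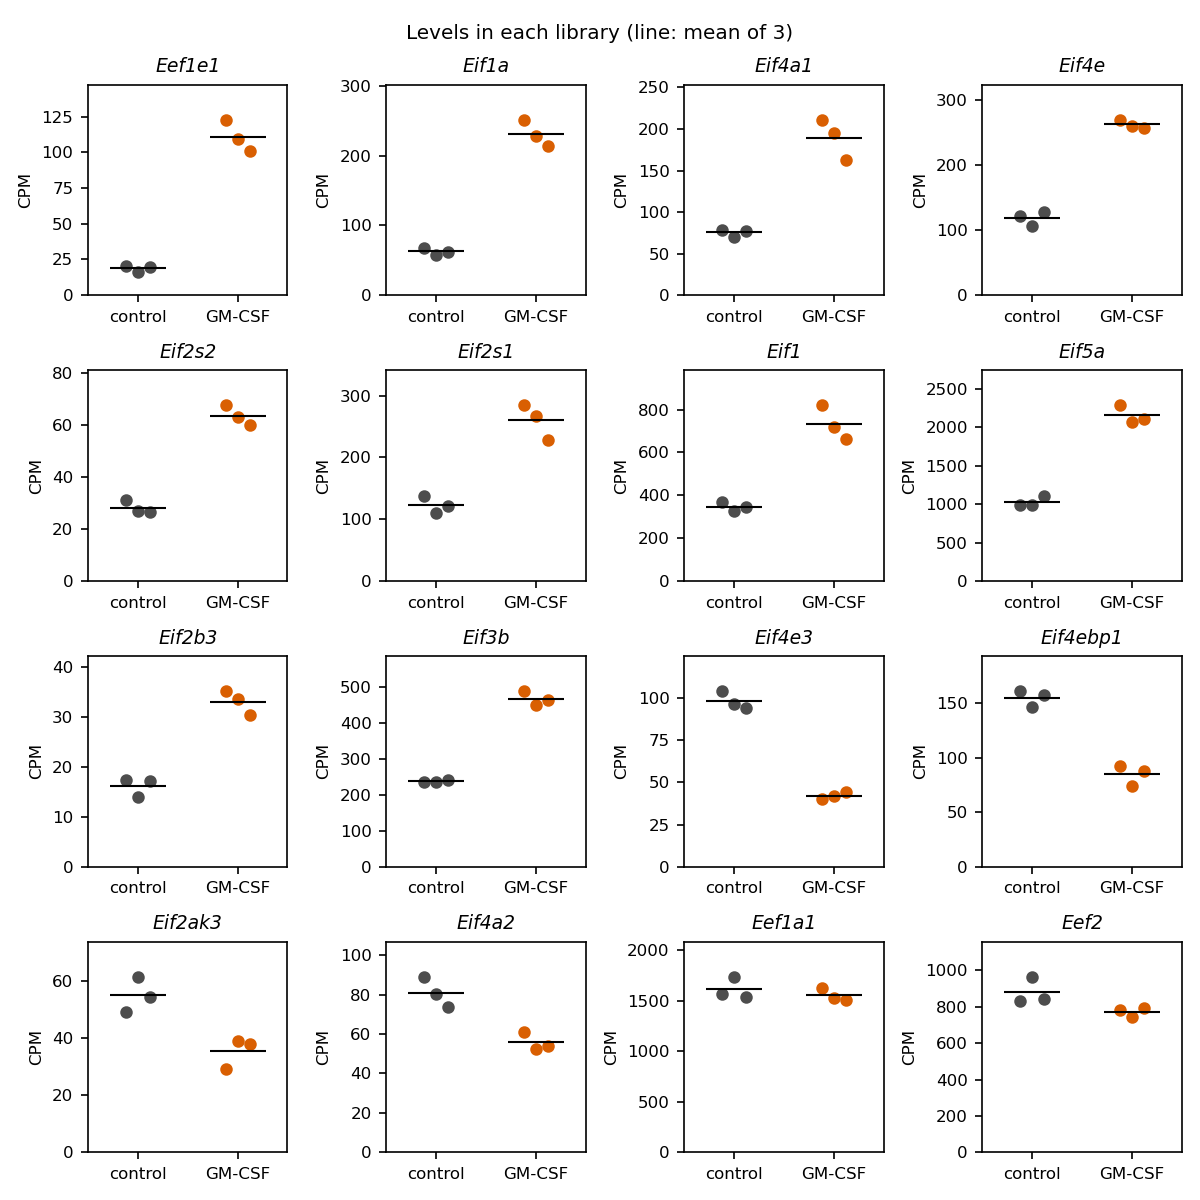
CPM (vertical axes from 0, a scale for each gene) of 16 members in 3 control and 3 GM-CSF libraries, 1 point per library, with the mean of each group as a line. The GM-CSF points lie above all control points in the first 10 genes and below them in Eif4e3, Eif4ebp1, Eif2ak3, Eif4a2 and Eef2, and the groups overlap in Eef1a1.

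Several factors exist as paralog pairs, and within a library the ratio of their reads does not depend on scaling. The log2 ratio of Eif4a1 to Eif4a2 was -0.17, -0.19 and 0.08 in controls and 1.79, 1.89 and 1.60 with GM-CSF, a change of 1.85. In reads, the pair went from near parity to a clear excess of Eif4a1. Per length of transcript, Eif4a1 was at 1.43 times Eif4a2 in controls and 5.16 times with GM-CSF. Other genes share 60.8% of the 100-base stretches of Eif4a1 and 3.8% of those of Eif4a2, so Eif4a1 may be undercounted in both groups. For Eif4e over Eif4e3 the log2 ratio was 0.23, 0.15 and 0.44 in controls and 2.74, 2.64 and 2.54 with GM-CSF, the widest shift of the 7 pairs measured (2.37). Per length of transcript, a scale that depends on the transcript chosen, Eif4e was at 0.608 of Eif4e3 in controls and at 3.15 times Eif4e3 with GM-CSF. In reads, Eif4e was above Eif4e3 in both groups, so the order in controls rests on the transcript lengths used. Eif1 over Eif1b shifted by 0.78, Eif4g1 over Eif4g3 by 0.69, Eif2s3x over Eif2s3y by 0.54 and Eif5a over Eif5a2 by 0.89, each without overlap between groups. The last of these rests on few Eif5a2 reads and was 0.56 without control replicate 2. For Eif4ebp1 over Eif4ebp2 the shift was -0.41 and the groups overlapped. No test was made of these ratios, since 3 libraries against 3 cannot give an exact permutation p below 0.1, and 2 further pairs had a member without reads.

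**Figure D5:**
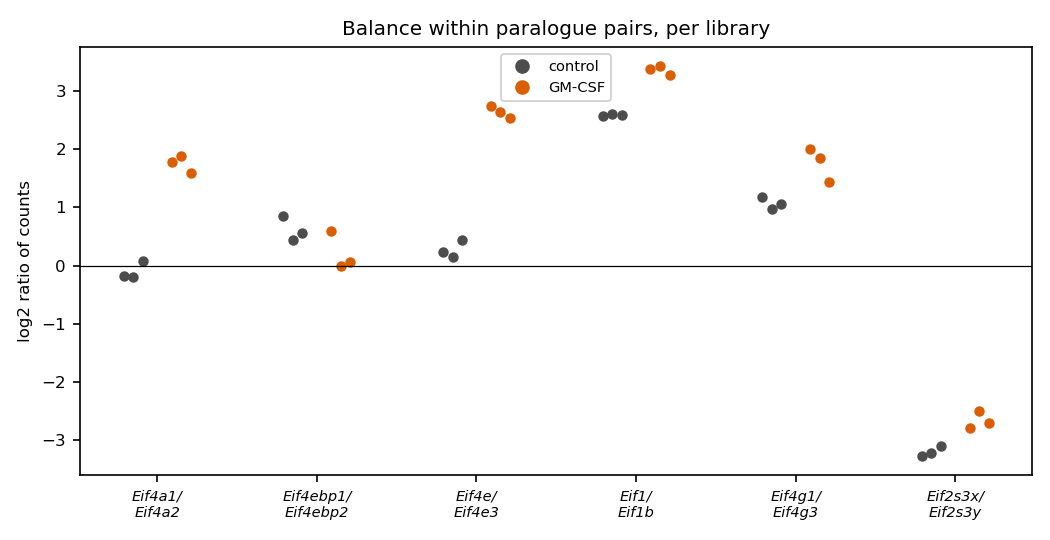
Log2 ratio of read counts between the paralogs named below each pair of columns (vertical axis), for 3 control and 3 GM-CSF libraries, 1 point per library. The GM-CSF points lie above the control points in each of the 6 pairs drawn except Eif4ebp1/Eif4ebp2, where they overlap.

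Genes that act beside these factors, taken from 7 lists, were mixed in direction. Among the 57 tested, 27 genes were called higher and 12 lower (68.4% called, 47.4% higher and 21.1% lower, against 64.0%, 32.8% and 31.2% of all genes), with a median log2 fold change of 0.30. Single lists had 42.9% to 100% of their genes called and are too short for their shares to be set against that of all genes. Termination and recycling factors rose in 5 of 6. Etf1, the release factor that reads stop codons, was at 99.3, 95.3 and 93.0 CPM in the controls and 287, 246 and 206 CPM with GM-CSF (1.37 ± 0.11), and its partner GTPase Gspt1 rose by 1.31 ± 0.11, while the paralog Gspt2 fell (-1.08 ± 0.19). Abce1 (1.25) and Pelo (1.26), which split ribosomes for reuse, and Hbs1l (0.52) also rose. Of 8 genes for reinitiation, helicases and subunit joining, 6 rose, with Sbds (1.08 ± 0.08), which works with a GTPase to remove eIF6 from the large subunit, and Denr (0.99 ± 0.08) leading, and Mcts1, the partner of DENR, fell (-0.38 ± 0.11).

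The modification enzymes, poly(A)-binding partners and signalling genes went in different directions. Of 9 genes for hypusine and diphthamide, 5 rose and 1 fell. Dohh, the hydroxylase of the last hypusine step, rose by 0.75 ± 0.09, while Dhps, the enzyme of the first step, did not pass (-0.23 ± 0.10, adjusted p = 0.0651; called lower without control replicate 1, -0.29, and with upper quartile scaling, -0.34). Dph2 (1.22) and Dph1 (0.91), for the diphthamide that eEF2 carries, had the largest rises and Dph7 fell (-0.84). Of 7 poly(A)-binding genes and partners, 2 rose and 1 fell. Pdcd4, an inhibitor of the eIF4A helicase, was at 41.0, 49.9 and 47.4 CPM in the controls and 11.0, 12.7 and 15.7 CPM with GM-CSF. That fall of -1.80 ± 0.14 (adjusted p = 9.26e-07) was deeper than that of any member. Larp1, a repressor of mRNAs with a pyrimidine start, rose (1.47 ± 0.27). Its levels were 50.3, 48.8 and 50.8 CPM in the controls and 92.5, 100.3 and 220.5 CPM with GM-CSF, so 1 library stood far above the rest, and leaving out GM-CSF replicate 3 gave a change of 0.96 (adjusted p = 3.68e-07).

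Of 10 genes that carry mTOR and MAP kinase signals to eIF4F, 3 rose and 3 fell. Mknk2, a kinase that phosphorylates eIF4E, was at 188, 185 and 193 CPM in the controls and 66.7, 87.3 and 71.5 CPM with GM-CSF (-1.32 ± 0.09, adjusted p = 4.63e-07), and its paralog Mknk1 fell by less (-0.31). Rheb, the GTPase that switches mTOR on, rose by 1.07 ± 0.10, Mtor by 0.45 and the mTOR inhibitor Deptor by 0.94, while Tsc2, which turns Rheb off, fell (-0.52). Of 8 genes around eIF2 dephosphorylation and stress signalling, 3 rose and 3 fell, all by less than 1 on the log2 scale. Phosphatase subunits were called in both directions. Ppp1r15a (0.40, with overlapping groups) and Ppp1r15b (0.35) rose, Ppp1ca (-0.25) and Ppp1cc (-0.35) fell, and Ppp1cb was not called (-0.06). The PERK inhibitor Dnajc3 (0.41) rose and Impact, an inhibitor of GCN2 signalling, fell (-0.62, but not called without control replicate 2, -0.48). Of 9 mitochondrial translation factors, 3 rose and 2 fell, with a median of 0.11, and Mrrf (0.75) and Mtrf1 (-0.53) changed most; the Mtrf1 call ended without GM-CSF replicate 1 (-0.46) or control replicate 1 (-0.48).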

How the data were processed

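RNA counts from 6 libraries were analysed, 3 per group, grouped by the sample labels. The authors deposited raw read counts per gene symbol, with columns matched to samples by title. Tools listed in the submitters' processing notes, with no roles, are HTSeq 0.6.1p1, STAR 2.5.2a, Trim Galore 0.4.4 and edgeR, and the listed build is mm10. No source used here gives the annotation or strand setting. Reads outside genes (7.82% to 9.72%), ambiguous (1.44% to 1.53%) or without a unique position (18.0% to 19.6%) were left out.

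The test was run with edgeR 4.0.16 in R 4.3.3: TMM, filterByExpr (minimum count 10, total 15), quasi-likelihood F test with group as the only term, Benjamini-Hochberg adjustment over 11731 genes, threshold 0.05. CPM used the sum of a library's gene counts. Dividing the size of the log2 fold change by the root of F gave its SE. Positions, lengths and shared stretches of 100 bases (same strand, protein-coding transcripts of each member against the transcripts of all other genes) came from GENCODE M21 on GRCm38, and promoters from RefSeq (GRCm38.p6). The procedure was tested on simulated counts with known changes in 200 of 11731 genes. It recovered 69% of 1.5-fold and 93.9% of 2-fold changes, with 10 false calls. Far fewer genes changed there than were called in the data, and all genes had the same spread setting, so these shares may not carry over.

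The members, role lists, related lists and markers were chosen with earlier results of these data known. Values in each library are given for the 12 members with the largest changes past 0.05 whose mean log2 CPM reached 3, the highest by CPM of each role and 19 listed genes. Those of Eif3f and Eif3h, and the pair Eif4e and Eif4ebp1, were added after their values were seen. Of the related lists, at least the 2 largest changes are named, and others were chosen after their values were seen. Alternatives were other scalings and filters, a replicate block, a robust prior, limma-voom (limma 3.58.1), the DESeq2 1.42.0 Wald test, removal of the 10 most abundant genes and leaving out each library. A correction for GC content (loess, span 0.5) and the pair ratios without each library were added after seeing the data.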

Additional observations from a re-analysis of the deposited data

How the results depend on the processing

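Under 17 alternatives, 45 of 59 members kept their direction and their side of the threshold throughout, 41 of them among the 49 called. The number of members higher was 34 to 40 and that of members lower 8 to 12, against 39 and 10. Leaving out 1 library at a time gave 36 to 40 higher and 8 to 10 lower. All genes changed numbered 6739 to 7739, against 7511, and the related translation genes kept within 1.5 times of 27 higher and 12 lower. Upper quartile scaling moved the median log2 fold change of all genes from 0.01 to -0.11, and that of the members from 0.40 to 0.29, so their distance to all genes stayed the same. With the GC correction the median of the members was 0.33. The cause of that shift was not tested. Signs turned only for values near 0 that were not called. Leaving out 1 library at a time gave these ranges of the log2 fold change: Eef1a1 -0.091 to 0.00941, Eef2kmt -0.079 to 0.00766, Eif5a2 -0.033 to 0.49, Pabpc1 -0.25 to 0.031, Ppp1cb -0.16 to 0.12 and Mtrf1l -0.018 to 0.18. The GC correction gave 0.021 for Eef2kmt, -0.025 for Eif5a2, -0.031 for Paip1 and -0.064 for Rps6kb1, and upper quartile scaling gave -0.00657 for Rps6kb1 and -0.00996 for Mtrf1l. Changes of the pair ratios kept their direction without each library.

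With the replicate number as a block, 39 members were higher, 10 lower and 7493 genes changed, so the block moved no count of calls by over 1.5 times. Deviations of libraries with the same number correlated at 0.0648, 0.01 and 0.00243, and GM-CSF replicates 2 and 3 correlated better with another control, so the numbers were not taken to pair the samples. Low read numbers limit Eif4ebp3 and Eif5a2, with under 130 reads per library, and reads of Eif4ebp3 may also have been lost to its shared stretches.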
